A study of Mus musculus with 12 samples.

Results

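Histone demethylases (KDM), histone deacetylases (HDAC) and sirtuins (SIRT) are the enzymes that take methyl and acetyl groups off histones and other proteins. Their genes were followed by RNA sequencing in tumours of CR705, a pancreatic cancer line of the mouse. The genes were listed by a rule on names, set with earlier results of these data known. It took protein-coding genes on an autosome or the X chromosome whose symbol is Kdm, Hdac or Sirt followed by a digit, without Kdm5d. This gave 35 of the 43432 genes in the count table, of which 17 were Kdm, 11 Hdac and 7 Sirt genes. The samples were 6 tumours grown from CR705 cells labelled AHRKO, a knockout of the aryl hydrocarbon receptor (a transcription factor activated by ligands, encoded by Ahr), and 6 tumours grown from CR705 cells labelled WT. No compound is named for any sample, although the culture texts of the labels speak of test compounds. The age and genotype of the host animals, the number of knockout clones and any pooling of animals are not stated, and host cells in the tumours are not said to carry the knockout. Whether each tumour grew in its own animal is not stated either, so a p here measures the spread between these samples and no more.

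Jumonji-domain demethylases use iron and alpha-ketoglutarate, and the KDM1 enzymes use flavin. KDM5 enzymes remove the methyl marks of histone H3 that are found at active promoters, and KDM6 enzymes remove the methyl mark laid down by Polycomb. HDACs of classes I, II and IV depend on zinc: most class I enzymes work in nuclear corepressor complexes, and class IIa enzymes bind MEF2 transcription factors and move between nucleus and cytoplasm. Sirtuins use NAD, and their members are spread over nucleus, cytoplasm and mitochondria.

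Total counts ran from 14772343 to 19944273 in AHRKO libraries and from 19293174 to 35881469 in WT libraries, and the 35 genes took from 0.200% to 0.269% of the counts in AHRKO and from 0.258% to 0.308% in WT. Levels are given as CPM, the usual depth-scaled count, with library totals adjusted by TMM. Ahr itself averaged 102 ± 30.6 CPM in AHRKO and 112 ± 8.18 CPM in WT (SD, n = 6 each; adjusted p = 0.606, edgeR's quasi-likelihood test), so its transcript level gives no check of the labels. AHRKO replicate 1 stood apart from the other AHRKO libraries. Its summed level of 8 ductal epithelium markers was 691 CPM, against 2956 to 4755 CPM in the other AHRKO libraries and 3419 to 4810 CPM in WT. Its summed level of 14 leukocyte markers was 3960.0 CPM, against 666 to 1438 CPM in the other AHRKO libraries and 426 to 783 CPM in WT. By edgeR's quasi-likelihood test 13 of the 14 leukocyte markers rose and 0 of the 8 ductal markers were called, while 1 ductal marker had an unadjusted p under 0.05 and DESeq2 and limma-voom called 1 each. Without AHRKO replicate 1 the ductal markers Krt19 (-0.81, adjusted p = 0.00337) and Sox9 (0.70, adjusted p = 0.00263) were called. No gene of either list was at 0 in every library. AHRKO replicate 1 also had the highest sums of fibroblast markers (56868 CPM, other AHRKO libraries 8927 to 20930 CPM, WT 15539 to 38985 CPM) and of endothelial markers (1420 CPM, other AHRKO libraries 271 to 425 CPM, WT 229 to 542 CPM). Adipocyte markers summed to 647 CPM in AHRKO replicate 4, 39.6 to 161 CPM in the other AHRKO libraries and 7.78 to 93.2 CPM in WT. Skeletal muscle markers summed to 391 CPM in AHRKO replicate 2. Their sums were 2.17 to 8.01 CPM in the other AHRKO libraries and 2.06 to 10.8 CPM in WT. On the first principal component (57% of the variance) AHRKO replicate 5 stood at -0.43, the other AHRKO libraries at 24.6 to 77.7 and WT at -46.5 to -22.2. Of the acinar markers, Ptf1a and Amy2a5 had 0 counts in all 12 libraries. In bulk tumours fewer cells of a type and less RNA per cell cannot be told apart, and the part of cell composition in the results below was not tested.

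Of the 34 genes with enough counts to be tested, 9 fell and 1 rose in AHRKO tumours. The genes that fell were Hdac9, Hdac6, all 3 Kdm5 genes of the list, Kdm6a, Kdm2a, Kdm4a and Kdm1a, and the gene that rose was Kdm8. Among all 15449 tested genes, 13.6% fell and 15.9% rose (29.5% in either direction; edgeR's quasi-likelihood test, adjusted p under 0.05), while among the 34 the shares were 26.5% and 2.94%. All AHRKO libraries lay below all WT libraries in 6 of the 34 genes and above them in 1, against 7.35% and 6.03% of all tested genes. The demethylases held most of the calls: 7 of 16 tested Kdm genes fell (43.8%), and 15 of 16 had a log2 fold change (AHRKO over WT) below 0, also with RLE and with upper-quartile scaling. Their median was -0.30, against 0.023 for all tested genes. Of 11 Hdac genes 2 fell, with a median of -0.049, and 0 of 7 Sirt genes were called, with a median of 0.085. Without AHRKO replicate 1, 14 of the 34 genes fell and 2 rose, with 17.8% and 19.1% of all genes: Hdac11, Kdm1b, Kdm4c, Kdm7a and Sirt1 were added to the falls and Hdac7 to the rises. Without AHRKO replicate 5, 3 genes rose (Kdm8, Sirt2 and Sirt3) and 11 fell, while 16.6% of all genes rose and 14.6% fell. Without AHRKO replicate 4, 2 genes rose (Kdm8 and Hdac7) and 9 fell, while 13.6% of all genes rose and 12% fell.

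**Figure D1:**
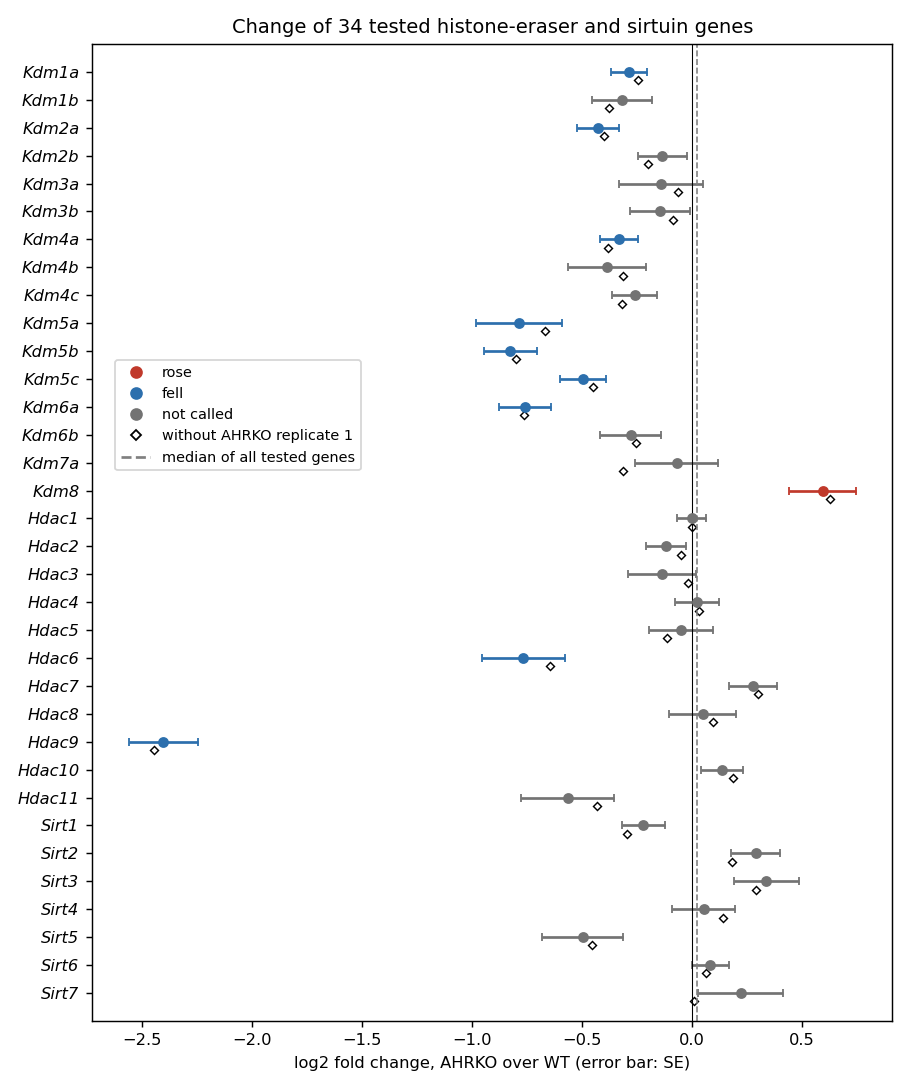
log2 fold change (AHRKO over WT) of each of the 34 tested genes with its SE, coloured by call, and the value without AHRKO replicate 1 as an open diamond. Hdac9 stands alone at -2.40, the Kdm5 genes, Kdm6a and Hdac6 lie between -0.82 and -0.50, and Kdm8 is the 1 called gene on the right.

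Hdac9 had the largest log2 fold change of the 34. This class IIa deacetylase, a corepressor of MEF2 factors, had 5.28, 4.69, 4.67, 3.25, 5.41 and 4.34 CPM in AHRKO replicates 1 to 6, against 21.5, 30.5, 21.3, 29.0, 22.9 and 21.04 CPM in WT replicates 1 to 6. The groups were far apart, the highest AHRKO library, replicate 5, lying well below the lowest WT library, replicate 6. Its mean was 4.61 ± 0.777 CPM in AHRKO and 24.4 ± 4.26 CPM in WT (SD, n = 6 each), a log2 fold change of -2.40 ± 0.16 (SE; adjusted p = 5.78e-06, edgeR's quasi-likelihood test). The values rest on 57 to 97 counts per AHRKO library and 442 to 1069 per WT library. Hdac9 ranked 4 by p among all tested genes, and its log2 fold change stayed between -2.45 and -2.32 in the 19 alternative fits. In AHRKO replicate 1 Hdac9 lay within the range of the other AHRKO libraries, and the part of cell composition in its fall was not tested.

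Hdac9 lies on mm10 chromosome 12 (34047580 to 34917095, minus strand). Ahr starts 618 kb from the start of Hdac9, and Snx13, a sorting nexin gene, starts 130.1 kb from it, between the 2 genes. Snx13 fell to 46.0 ± 3.04 CPM in AHRKO, against 64.4 ± 6.07 CPM in WT, with no overlap (log2 fold change -0.48 ± 0.08 SE, adjusted p = 0.00127, edgeR's quasi-likelihood test). On the other side, Twist1, a transcription factor gene of mesenchymal cells, averaged 47.2 ± 8.11 CPM in AHRKO and 33.3 ± 8.07 CPM in WT, a rise of 0.50 ± 0.17 (SE) on the log2 scale (adjusted p = 0.0419). That call was lost when any 1 of 9 libraries was left out, among them WT replicate 4 (adjusted p = 0.0915, the highest) and AHRKO replicate 1 (adjusted p = 0.0637), the others being WT replicates 1, 5 and 6 and AHRKO replicates 2, 3, 4 and 6. Ferd3l and Prps1l1, the other protein-coding genes that start within 1 Mb, had too few counts to be tested. Along chromosome 12 as a whole 33.0% of 524 tested genes fell and the median log2 fold change was -0.24. What part of the fall of Hdac9 its chromosome has was not tested.

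The sequence before a gene's start was available from RefSeq (GRCm38.p6), and it is shown for the start of the long Hdac9 transcripts (chr12:34917046-34917345, minus strand) and for Kdm5b (chr1:134559928-134560227, plus strand) and Kdm6a (chrX:18162325-18162624, plus strand), the called members with the next smallest p. Each window holds 250 bases before and 50 bases after the start, 5′ to 3′. Capitals mark the core that AHR with its partner ARNT binds, GCGTG on either strand (CACGC on the other), which the hypoxia factors can also bind.
Hdac9: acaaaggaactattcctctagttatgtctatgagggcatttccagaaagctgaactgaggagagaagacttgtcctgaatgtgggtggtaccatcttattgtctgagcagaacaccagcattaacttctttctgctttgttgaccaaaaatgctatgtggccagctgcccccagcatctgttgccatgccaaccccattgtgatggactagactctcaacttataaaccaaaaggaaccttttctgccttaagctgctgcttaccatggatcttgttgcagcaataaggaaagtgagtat
Kdm5b: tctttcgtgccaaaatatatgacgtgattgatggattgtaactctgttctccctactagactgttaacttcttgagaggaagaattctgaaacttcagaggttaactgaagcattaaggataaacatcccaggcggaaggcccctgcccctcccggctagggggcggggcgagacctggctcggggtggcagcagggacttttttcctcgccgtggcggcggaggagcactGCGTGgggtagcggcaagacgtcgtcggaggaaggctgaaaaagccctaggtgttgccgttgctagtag
Kdm6a: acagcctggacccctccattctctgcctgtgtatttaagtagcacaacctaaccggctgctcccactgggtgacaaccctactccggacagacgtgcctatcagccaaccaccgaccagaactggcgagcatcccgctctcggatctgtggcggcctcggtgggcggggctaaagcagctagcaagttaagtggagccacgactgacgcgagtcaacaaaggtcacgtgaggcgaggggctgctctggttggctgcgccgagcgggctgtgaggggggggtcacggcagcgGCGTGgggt
The Hdac9 window has no such core, and neither does that of its inner start (chr12:34528840-34529139). In Kdm5b the core begins 19 bases before the start and in Kdm6a 41 bases after it. RefSeq windows were found for 27 of the 35 genes, and 15 of the 27 had a core in at least 1 window, against 35.2% of 27025 genes. That share also depends on the number of windows per gene. Counted by window, 18 of 39 had a core, against 32.4% of 32851 windows of all genes. Among the 8 called genes with a window, 4 had a core. A match of 5 letters is a description of the sequence and not of binding.

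All 3 Kdm5 genes fell without overlap between the groups. Kdm5b, a demethylase of promoter marks that is linked to cell identity and slow cycling in tumours, had 76.1, 64.0, 99.5, 71.4, 103 and 86.1 CPM in AHRKO replicates 1 to 6, against 153, 167, 144, 150.0, 141 and 131 CPM in WT replicates 1 to 6. Its mean was 83.4 ± 15.7 CPM in AHRKO and 148 ± 12.3 CPM in WT, a fall of 0.82 ± 0.12 (SE) on the log2 scale (adjusted p = 0.000706, edgeR's quasi-likelihood test). The highest AHRKO value, in replicate 5, was below the lowest WT value, in replicate 6. Kdm5a, which was first found as a partner of the retinoblastoma protein, had 72.8, 108, 152, 109, 157 and 151 CPM in AHRKO and 228, 158, 166, 269.6, 230.2 and 241 CPM in WT, by replicate. Here the groups nearly touched, between AHRKO replicate 5 and WT replicate 2, and AHRKO replicate 1 was far the lowest. The fall of Kdm5a was 0.79 ± 0.20 (SE) on the log2 scale (adjusted p = 0.0107), and 0.67 without AHRKO replicate 1 (adjusted p = 0.00595). Kdm5c, the X-linked member, had 183, 206, 221, 192, 271 and 244 CPM in AHRKO and 322, 282, 305, 318, 346 and 283 CPM in WT, by replicate. It averaged 219 ± 33.1 CPM in AHRKO and 309 ± 24.4 CPM in WT, and fell by 0.50 ± 0.10 (SE) on the log2 scale (adjusted p = 0.00469). The summed level of the 3 Kdm5 genes ran from 332 to 531 CPM in AHRKO and from 607 to 737 CPM in WT, and its mean in AHRKO was 0.636 of that in WT.

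Of the 2 KDM6 genes, which act against Polycomb marks, Kdm6a fell and Kdm6b was not called. Kdm6a, X-linked and also a subunit of KMT2C and KMT2D methyltransferase complexes, had 48.4, 47.8, 50.4, 34.6, 53.2 and 49.9 CPM in AHRKO replicates 1 to 6, against 74.3, 65.7, 71.5, 89.3, 92.7 and 87.0 CPM in WT replicates 1 to 6. In 5 AHRKO libraries the values lay within a few CPM of each other, AHRKO replicate 4 was lower, and all were below WT. The log2 fold change was -0.76 ± 0.12 (SE; adjusted p = 0.00101, edgeR's quasi-likelihood test). Kdm6b, an inducible gene of inflammatory responses, averaged 123 ± 22.9 CPM in AHRKO and 149.6 ± 26.2 CPM in WT, with a log2 fold change of -0.28 ± 0.14 (SE; adjusted p = 0.150). An antisense gene, Kdm6bos, overlaps Kdm6b. Its counts were 0.806% of those of Kdm6b, and strand use in the counting is not given. Whether the changes of Kdm6a and Kdm6b differ from each other was not tested.

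The KDM1, KDM2 and KDM4 families each had 1 gene that fell by less than those above. Kdm2a, a demethylase that binds unmethylated CpG islands, had 164, 187, 182, 150.5, 207 and 195 CPM in AHRKO and 282, 228, 216, 248, 253 and 233 CPM in WT, by replicate. Its groups did not overlap, and the fall was 0.43 ± 0.09 (SE) on the log2 scale (adjusted p = 0.00609, edgeR's quasi-likelihood test). Kdm4a, which acts on heterochromatin marks, had 100.5, 73.6, 86.8, 77.4, 86.8 and 86.0 CPM in AHRKO and 112, 102, 91.0, 116, 114 and 108 CPM in WT, by replicate. Only AHRKO replicate 1 reached into the WT range, and the fall was 0.33 ± 0.09 (SE; adjusted p = 0.0144). Kdm1a, which encodes LSD1, the flavin-dependent enzyme of the CoREST complex, had 95.8, 106, 117, 114, 124 and 117 CPM in AHRKO and 142, 144, 114, 142, 145 and 134 CPM in WT, by replicate. Its WT replicate 3 lay among the AHRKO values. The log2 fold change of Kdm1a was -0.29 ± 0.08 (SE; adjusted p = 0.0217, edgeR's quasi-likelihood test). Without WT replicate 5 it was -0.27 and no longer called (adjusted p = 0.0502). Kdm1a overlaps Luzp1, a gene on the opposite strand whose counts were 73.8% of its own, by 4241 bases.

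**Figure D2:**
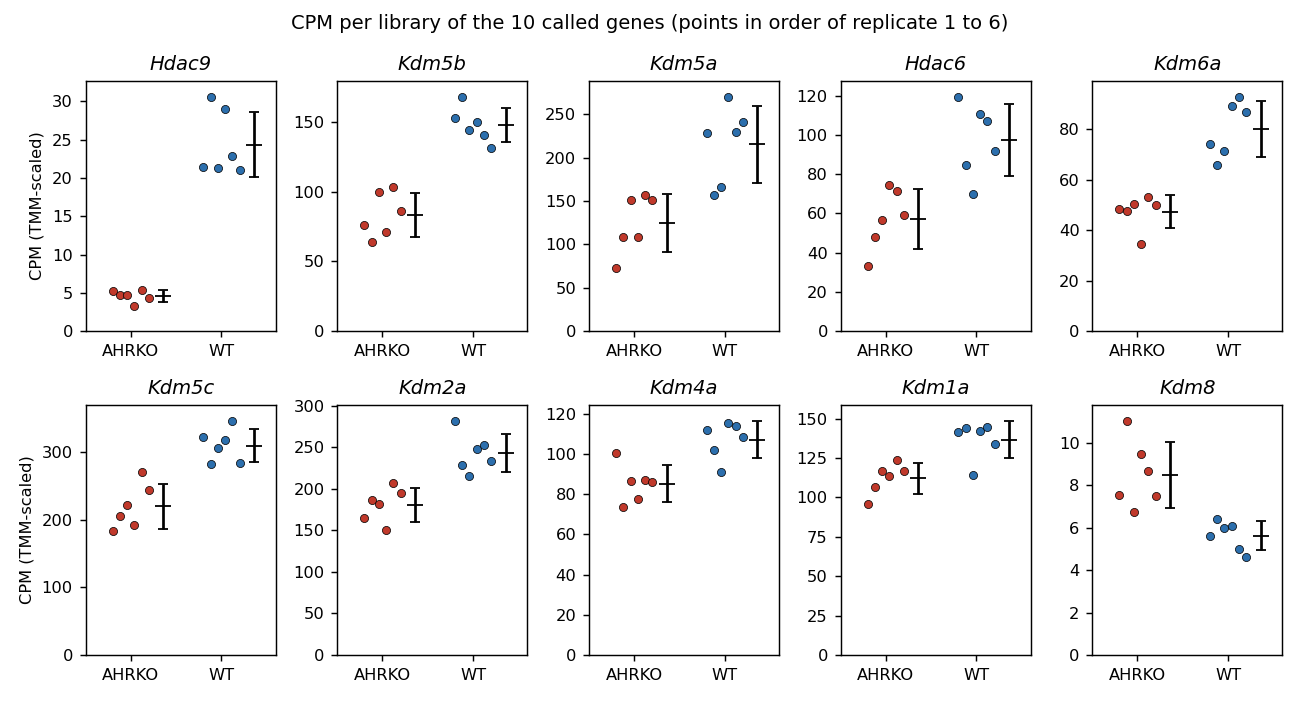
CPM of the 10 called genes in each of the 6 AHRKO (left) and 6 WT (right) libraries, points in order of replicate, with mean and SD beside them; every axis starts at 0. Hdac9, Kdm5a, Kdm5b, Kdm5c, Kdm6a and Kdm2a have all AHRKO points below all WT points, and Kdm8 has all above.

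The other demethylases were not called by edgeR's quasi-likelihood test. DESeq2 called Kdm4c (adjusted p = 0.0469), and limma-voom called Kdm4c (0.0226), Kdm1b (0.0295) and Kdm7a (0.0480). Kdm2b, Kdm3a, Kdm3b, Kdm1b, Kdm4b, Kdm4c and Kdm7a all had log2 fold changes between -0.39 and -0.069. Kdm4b, a relative of Kdm4a, had the largest of these, -0.39 ± 0.18 (SE; adjusted p = 0.121, edgeR's quasi-likelihood test), with 54.1, 53.1, 92.1, 68.3, 100.1 and 76.2 CPM in AHRKO and 127, 111, 94.7, 93.8, 74.2 and 80.2 CPM in WT, by replicate. Its values spread widely in both groups and overlapped. Without AHRKO replicate 5 Kdm4b was called, at -0.49 (adjusted p = 0.0496). Kdm3a, the best known hypoxia-responsive demethylase, averaged 85.5 ± 22.7 CPM in AHRKO and 94.2 ± 20.6 CPM in WT, with a log2 fold change of -0.14 (adjusted p = 0.614). Of 15 hypoxia genes 0 were called by edgeR's quasi-likelihood test, 0 had an unadjusted p under 0.05, DESeq2 called 0 and limma-voom called 1. Kdm7a turned on a single library: it had 58.5 CPM in AHRKO replicate 1, 25.1 to 31.8 CPM in the other AHRKO libraries and 31.1 to 37.8 CPM in WT. Its log2 fold change was -0.069 (adjusted p = 0.809) and -0.31 without AHRKO replicate 1 (adjusted p = 0.0150). Without that library Kdm1b was at -0.38 (adjusted p = 0.0356) and Kdm4c at -0.32 (adjusted p = 0.0158), in place of -0.32 and -0.26. Kdm1b overlaps Dek by 505 bases and Tpmt by 1239 bases, both on the opposite strand, and Dek had 674% of the counts of Kdm1b. Kdm4d, a testis gene in the mouse, had 0 to 7 counts per AHRKO library and 4 to 12 per WT library and was not tested. Whether Kdm4dl, a gene of similar name on the same chromosome, shares its reads was not tested.

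Kdm8 was the single gene to rise. This Jumonji protein, also called JMJD5, had 7.54, 11.03, 6.73, 9.46, 8.69 and 7.52 CPM in AHRKO replicates 1 to 6, against 5.63, 6.43, 5.97, 6.09, 5.01 and 4.62 CPM in WT replicates 1 to 6. All AHRKO libraries were above all WT libraries, by little between AHRKO replicate 3 and WT replicate 2. The mean was 8.49 ± 1.57 CPM in AHRKO and 5.62 ± 0.688 CPM in WT, a log2 fold change of 0.59 ± 0.15 (SE; adjusted p = 0.0123, edgeR's quasi-likelihood test), on 97 to 228 counts per library. Kdm8 lies on chromosome 7, where 25.3% of 1164 tested genes rose and the median log2 fold change was 0.21. Sirt2 and Sirt3 lie on the same chromosome. The part of the chromosome in these values was not tested.

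Among the deacetylases beside Hdac9, Hdac6 fell. Hdac6, the X-linked class IIb enzyme that deacetylates tubulin in the cytoplasm, had 33.1, 48.2, 56.7, 74.4, 71.5 and 59.4 CPM in AHRKO replicates 1 to 6, against 119, 84.9, 70.0, 111, 107 and 91.8 CPM in WT replicates 1 to 6. WT replicate 3 lay below the 2 highest AHRKO libraries, so the groups overlapped. The log2 fold change was -0.77 ± 0.19 (SE; adjusted p = 0.0100, edgeR's quasi-likelihood test), and -0.65 without AHRKO replicate 1, the lowest library (adjusted p = 0.00477). Hdac10, the other class IIb gene, was at 0.14 ± 0.10 (SE; adjusted p = 0.298). Of the 4 X-linked genes Kdm5c, Kdm6a and Hdac6 fell and Hdac8 was at 0.050 (adjusted p = 0.830), while 15.6% of 482 tested X-linked genes fell.

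The class I genes are Hdac1, Hdac2 and Hdac3, whose proteins are catalytic subunits of nuclear corepressors, and Hdac8, whose protein works outside them. They had log2 fold changes between -0.14 and 0.050. Hdac1 had 105, 102, 106, 114, 108 and 91.8 CPM in AHRKO and 97.0, 109, 102, 107, 108 and 104 CPM in WT, by replicate. Its log2 fold change was -0.00014 ± 0.066 (SE; adjusted p = 0.999, edgeR's quasi-likelihood test), with the groups spread over the same range. Hdac3, the enzyme of the NCoR complex, had 74.6, 119, 136, 162, 156 and 132 CPM in AHRKO and 161, 146, 137, 146, 129 and 136 CPM in WT, by replicate. AHRKO replicate 1 was much the lowest of the 12, and the log2 fold change was -0.14 ± 0.15 (SE; adjusted p = 0.531) with it and -0.018 without it (adjusted p = 0.891). The summed level of the 4 genes was 332 ± 46.1 CPM in AHRKO and 352 ± 8.49 CPM in WT (SD, n = 6 each).

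The other class IIa genes were not called by edgeR's quasi-likelihood test, while DESeq2 and limma-voom each called Hdac7 (adjusted p = 0.0415 and 0.0111). Hdac7, a class IIa enzyme of endothelium and lymphocytes, had 178, 203, 192, 141, 229 and 216 CPM in AHRKO and 172, 148, 146, 166, 167 and 158 CPM in WT, by replicate. In 5 AHRKO libraries Hdac7 was above every WT library and in AHRKO replicate 4 below them all. Its log2 fold change was 0.28 ± 0.11 (SE; adjusted p = 0.0705, edgeR's quasi-likelihood test), and it was called without AHRKO replicate 4 (0.36, adjusted p = 0.00752) or AHRKO replicate 1 (0.30, adjusted p = 0.0447). Hdac7 and Hdac10 lie on chromosome 15, where 29.3% of 604 tested genes rose and the median log2 fold change was 0.23. The part of the chromosome in their values was not tested. Hdac4 was at 0.023 ± 0.10 (SE) and Hdac5 at -0.049 ± 0.15 (SE), with adjusted p of 0.887 and 0.827 (edgeR's quasi-likelihood test). Because Hdac7 and Hdac5 are abundant, the summed class IIa level was 329 ± 38.7 CPM in AHRKO and 318 ± 17.8 CPM in WT. Hdac11, the class IV gene, had 6.70, 12.6, 14.6, 13.0, 18.3 and 12.3 CPM in AHRKO and 24.3, 15.7, 16.5, 23.1, 15.04 and 20.04 CPM in WT, by replicate. In 5 AHRKO libraries Hdac11 was below every WT library and in AHRKO replicate 5 within their range. It missed the threshold at -0.56 ± 0.21 (SE; adjusted p = 0.0610, edgeR's quasi-likelihood test). It was called by DESeq2 (adjusted p = 0.0327) and limma-voom (adjusted p = 0.0333), and by edgeR's test without AHRKO replicate 1 (-0.43, adjusted p = 0.0472) or AHRKO replicate 5 (-0.69, adjusted p = 0.0256).

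None of the 7 sirtuins was called by edgeR's quasi-likelihood test at an adjusted p under 0.05, while 4 had an unadjusted p under 0.05, DESeq2 called 2 (Sirt3 and Sirt5) and limma-voom called 2 (Sirt1 and Sirt2). Sirt5, a mitochondrial desuccinylase, had 4.39, 3.73, 6.66, 4.79, 5.47 and 5.61 CPM in AHRKO and 7.69, 7.40, 5.78, 9.11, 5.21 and 8.00 CPM in WT, by replicate. All 6 AHRKO libraries were below the WT median, but the ranges overlapped, and the log2 fold change was -0.50 ± 0.18 (SE; adjusted p = 0.0582). It was called without WT replicate 5 (-0.57, adjusted p = 0.0423) and without AHRKO replicate 3 (-0.58, adjusted p = 0.0369). Sirt1, the nuclear deacetylase of p53 and other factors, was lower than every WT library in 5 AHRKO libraries and had its highest AHRKO value in replicate 1. Its log2 fold change was -0.22 ± 0.10 (SE; adjusted p = 0.108), and -0.29 without AHRKO replicate 1 (adjusted p = 0.0108). The cytoplasmic tubulin deacetylase gene Sirt2 was at 0.29 ± 0.11 (SE; adjusted p = 0.0675) and the mitochondrial Sirt3 at 0.34 ± 0.15 (SE; adjusted p = 0.0996). Both were called without AHRKO replicate 5, at 0.34 (adjusted p = 0.0299) and 0.41 (adjusted p = 0.0369). Sirt2 was highest, at 96.9 CPM, in AHRKO replicate 1, and its log2 fold change was 0.18 without that library (adjusted p = 0.0947). Sirt7, a nucleolar sirtuin, likewise had 75.9 CPM in AHRKO replicate 1, 27.8 to 50.4 CPM in the other AHRKO libraries and 35.8 to 42.1 CPM in WT, and its log2 fold change of 0.22 was 0.011 without that library. Sirt4 and Sirt6 were at 0.053 and 0.085, with adjusted p of 0.803 and 0.477. The Sirt3 and Sirt7 genes overlap more abundant neighbours, Ric8a and Psmd13 on the opposite strand and Mafg on the same strand, so their counts depend on how shared reads were treated. Sirt2, Hdac7, Kdm2b and Kdm5a also overlap a protein-coding gene on the opposite strand. Those genes, Nfkbib, Slc48a1, Rnf34 and Ccdc77, had 40.1%, 39.2%, 77% and 17.1% of the members' counts.

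**Figure D3:**
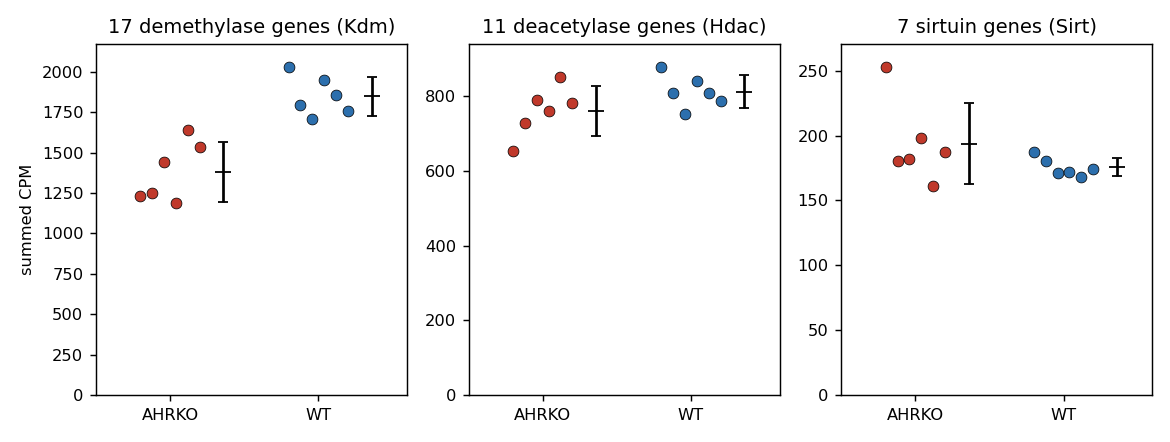
Summed CPM of the 17 Kdm, 11 Hdac and 7 Sirt genes per library, AHRKO left and WT right, with mean and SD; every axis starts at 0. The Kdm sum runs from 1190.4 to 1641 CPM in AHRKO and from 1710.4 to 2032 CPM in WT, the Hdac and Sirt sums overlap, and the highest Sirt sum, 253 CPM, is AHRKO replicate 1.

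Summed over families, the demethylase transcripts were 1382 ± 185 CPM in AHRKO and 1851 ± 122 CPM in WT (SD, n = 6 each), without overlap. The deacetylase sum was 761 ± 67.0 CPM in AHRKO and 813 ± 43.7 CPM in WT, and the sirtuin sum 194 ± 31.4 CPM in AHRKO and 176 ± 7.02 CPM in WT. These sums are descriptions without a test, since a score over chosen genes is given none.

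Levels of different genes were compared per kb of merged exon, since longer transcripts yield more counts. Kdm5c was the most abundant of the 35 in WT, at 43.5 ± 3.43 CPM per kb, while in AHRKO it was at 30.9 ± 4.65 CPM per kb, close to Hdac3 (32.0 ± 7.73) and Hdac1 (30.3 ± 2.18). In WT, Hdac3 stood at 35.2 ± 2.74 and Hdac1 at 30.3 ± 1.29 CPM per kb. Hdac7 was at 28.6 ± 4.63 CPM per kb in AHRKO and 23.6 ± 1.58 in WT. At the low end of the tested genes, Hdac9 was at 0.314 ± 0.0530 CPM per kb in AHRKO, below every other tested member, and at 1.66 ± 0.291 in WT, above Sirt5 (1.18 ± 0.238) and Sirt3 (1.11 ± 0.0846). The neighbouring genes at the top of the AHRKO order did not differ beyond their SD.

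**Figure D4:**
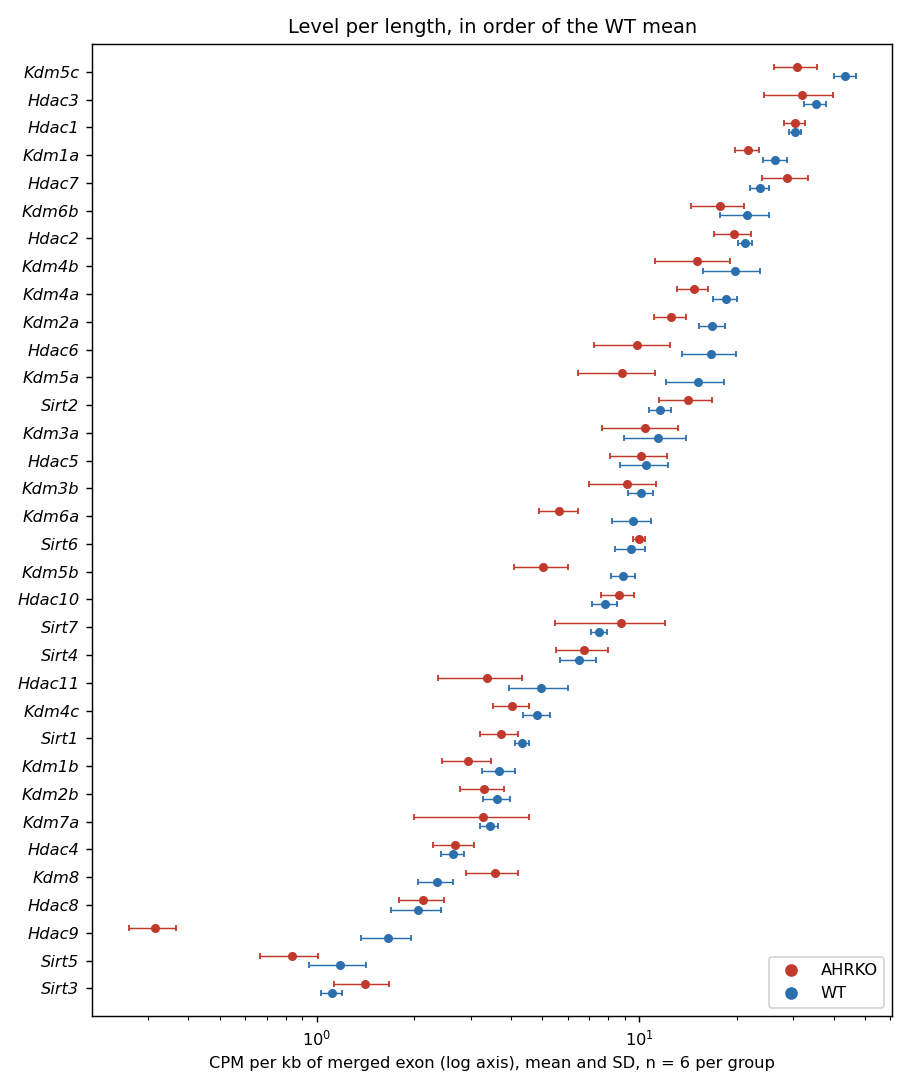
Mean CPM per kb of merged exon with SD (n = 6 each) for the 34 tested genes on a log axis, AHRKO above WT in each row, ordered by the WT mean. The levels run from 0.314 for Hdac9 in AHRKO to 43.5 for Kdm5c in WT. All called genes, among them Hdac9, Kdm5b, Kdm6a and Kdm5c, show gaps wider than their SDs.

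The AHRKO libraries differed in which genes were lowest. AHRKO replicate 4 was the lowest AHRKO library in 10 of the 34 tested genes, among them Hdac9, Kdm6a, Kdm2a and Hdac7. AHRKO replicate 1 was lowest in 9, among them Kdm5a, Kdm5c, Hdac6, Hdac11 and Hdac3, and highest in another 9, among them Kdm7a, Sirt1, Sirt2 and Sirt7. AHRKO replicate 5 was the highest in 15 genes, including Kdm5a, Kdm5b, Kdm5c, Kdm6a and Kdm2a.

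**Figure D5:**
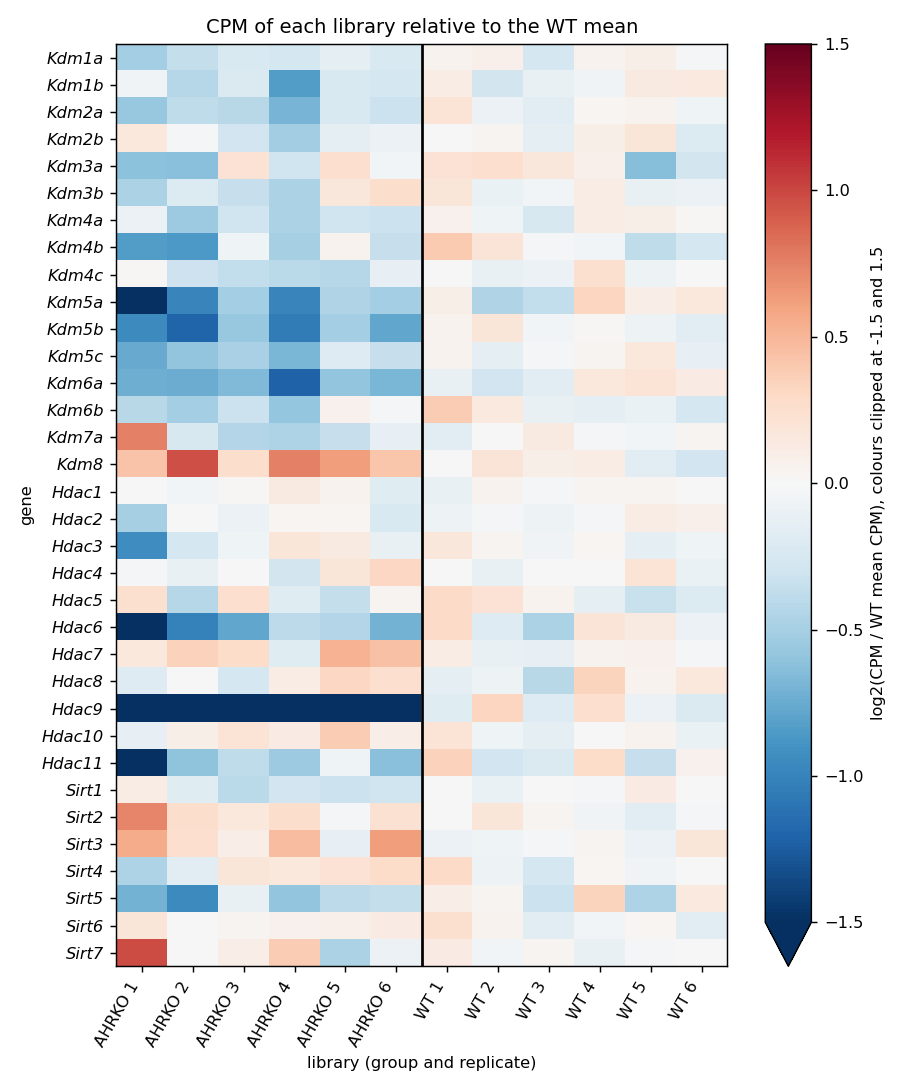
log2 of CPM over the WT mean for the 34 tested genes (rows) in the 6 AHRKO (left) and 6 WT (right) libraries; colours are clipped at -1.5 and 1.5. Hdac9 is dark in all AHRKO columns, Kdm5a, Kdm5b, Kdm5c and Kdm6a are blue in all of them, and AHRKO 1 departs from its group in Kdm7a, Sirt2, Sirt7, Hdac3 and Hdac11.

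Genes of the complexes that hold these enzymes were called in both directions in NuRD and SIN3 and only as falls in CoREST and NCoR. Medians of log2 fold change below stand against 0.023 for all tested genes, and the counts against 15.9% of all tested genes that rose and 13.6% that fell. Of 12 subunits of NuRD, a remodelling complex with class I HDACs, 3 rose (25%) and 2 fell (16.7%), near those shares: Cdk2ap1 was at 0.82 ± 0.10 and Mbd2, a methyl-CpG binding protein gene, at 0.37 ± 0.08, while the helicase gene Chd3 was at -0.57 ± 0.12 (log2 fold change ± SE; list median -0.028). Of 14 SIN3 subunits 4 fell (28.6%) and 2 rose (14.3%), with Arid4b at -0.87 ± 0.14, the scaffold gene Sin3b at -0.61 ± 0.11 and Suds3 at 0.41 ± 0.09 (list median -0.18). Of 8 genes of CoREST, the complex of LSD1, 4 fell (50%; list median -0.37), among them the scaffold gene Rcor1 at -0.44 ± 0.12 and Zmym2 at -0.32 ± 0.09. In the NCoR complex 1 of 5 fell (20%), the scaffold gene Ncor1 at -0.36 ± 0.11 (list median -0.17). Its adjusted p was 0.0324 and above 0.05 when WT replicate 1, 4, 5 or 6 or AHRKO replicate 3 was left out (at most 0.0711). The adjusted p of the other named subunits ran from 0.000267 for Cdk2ap1 to 0.0208 for Zmym2 (edgeR's quasi-likelihood test).

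Genes of enzymes that add acetyl or methyl groups to histones were called in part. Of 10 histone acetyltransferase genes 3 fell (30%, against 13.6% of all tested genes; list median -0.12): Kat6b at -0.87 ± 0.13, Kat7 at -0.52 ± 0.10 and Kat2a at -0.20 ± 0.06 (log2 fold change ± SE; adjusted p = 0.000957, 0.00395 and 0.0235, edgeR's quasi-likelihood test). Kat2a was not called without WT replicate 1 or 5 (adjusted p at most 0.0546), and 5 genes were called without AHRKO replicate 6. Of 25 histone methyltransferase genes 6 fell and 1 rose (against 13.6% and 15.9% of all tested genes; list median -0.087), with Kmt5b at -0.79 ± 0.11, the heterochromatin enzyme gene Suv39h1 at -0.83 ± 0.14 and Setd2 at -0.55 ± 0.10 (adjusted p = 0.000478, 0.00184 and 0.00243). The number of called methyltransferases was 3 on leaving out AHRKO replicate 2 or WT replicate 4, and 4 on leaving out WT replicate 1, 2, 5 or 6. Of 12 tested other Jumonji genes 2 rose (16.7%, near the 15.9% of all tested genes; list median -0.11), Riox2 at 0.49 ± 0.12 and Phf2 at 0.30 ± 0.10 (adjusted p = 0.0106 and 0.0343). Phf2 lost its call on leaving out AHRKO replicate 5 or 6, or any WT library but replicate 5 (adjusted p at most 0.0783), which left 1 called gene, while 4 were called without AHRKO replicate 1.

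Among MEF2 factors and genes of kinases that act on class IIa HDACs, 2 of 11 tested rose (18.2%) and 1 fell (9.09%), near the 15.9% and 13.6% of all tested genes (list median 0.082). Mef2c, whose protein is held in check by class IIa HDACs and which is also active in lymphocytes and macrophages, averaged 35.5 ± 10.7 CPM in AHRKO and 16.2 ± 3.14 CPM in WT, without overlap. It rose by 1.13 ± 0.20 (SE) on the log2 scale (adjusted p = 0.00187, edgeR's quasi-likelihood test), and by 0.97 without AHRKO replicate 1. The calcium-dependent kinase gene Camk2d was at 0.48 ± 0.09 (SE) and the protein kinase D gene Prkd3 at -0.37 ± 0.09 (SE), with adjusted p of 0.00259 and 0.00854. Of 12 genes that make or use NAD, the cofactor of sirtuins, 3 rose (25%) and 1 fell (8.33%), against the same shares of all genes (list median -0.047). The genes that rose were Cd38 at 0.90 ± 0.18, Bst1 at 2.48 ± 0.54 and Parp2 at 0.41 ± 0.10 (log2 fold change ± SE; adjusted p = 0.00384, 0.00563 and 0.0074, edgeR's quasi-likelihood test). The gene that fell was Nmnat2, at -0.71, and its call was lost when any 1 of 9 libraries was left out. Cd38 and Bst1 are also expressed on leukocytes, whose markers rose in AHRKO, and were at 0.73 and 2.15 without AHRKO replicate 1.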

How the data were processed

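RNA of 12 CR705 tumours (6 AHRKO, 6 WT) was sequenced after poly-T bead capture, per the labels' protocols. The authors deposited 1 table of raw counts per gene. HISAT2, SAMtools, HTSeq, DESeq2 and mm10 are named in the submitters' processing notes, without versions. Strand setting, treatment of multiply mapped reads and the annotation used were not given in the sources used here. Gene symbols were matched through GENCODE M21 (42548 of 43432 IDs).

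Counts were filtered with filterByExpr (minimum count 10), scaled by TMM and tested over all 15449 remaining genes with edgeR 4.0.16 (quasi-likelihood test, 2-sided, Benjamini-Hochberg, adjusted p under 0.05) in R 4.3.3; SE is the log2 fold change divided by the square root of F. The code was tested on simulated data. DESeq2 1.42.0, limma 3.58.1 (voom), other scalings and filters, a block by replicate number and fits with 1 library left out were alternatives. Shared replicate numbers do not pair the tumours in the labels. Called members are given in every library, with the 3 most abundant per kb and the 3 uncalled with the largest change; up to 3 called genes per partner list, by p, and called neighbours within 1 Mb are named. One partner gene that this rule names is not reported here. Per-library values of Hdac7 and of Kdm7a, Sirt1, Sirt2 and Sirt7 in AHRKO replicate 1 were chosen after seeing them. The members and lists were chosen with earlier results of these data known.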

Additional observations from a re-analysis of the deposited data

Results flagged for a closer look

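In 6 of 70 sets of 6 libraries 1 value lay far from the others by Dixon's test (gap to the nearest value over the range, above the 95% critical value), where chance gives about 1 in 20 sets, or 3.5. Kdm7a had 58.5 CPM in AHRKO replicate 1, with 31.8 CPM the nearest AHRKO value. Sirt2 had 96.9 CPM in AHRKO replicate 1, with 69.9 CPM the nearest. Kdm6a had 34.6 CPM in AHRKO replicate 4, with 47.8 CPM the nearest. Hdac4 had 48.1 CPM in WT replicate 5, with 41.8 CPM the nearest WT value. Kdm1a had 114 CPM in WT replicate 3, with 134 CPM the nearest. Kdm4c had 33.3 CPM in WT replicate 4, with 28.3 CPM the nearest.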

How the results depend on the processing

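The 10 called genes were refitted under 19 alternatives each: of the 190 fits 188 gave the same call and direction, 0 reversed, and 2 lost the call, both of Kdm1a (without WT replicate 5, and with a replicate block, adjusted p = 0.0826). With DESeq2 3 of the 34 genes rose and 12 fell, while 19.5% of all tested genes rose and 16.2% fell. With limma-voom 3 rose and 14 fell, while 19.9% of all tested genes rose and 19.1% fell. Leaving out single libraries, 1 to 3 rose and 9 to 14 fell. In those fits 11.7% to 19.1% of all tested genes rose and 10.5% to 17.8% fell. With limma-voom the called genes numbered 5 acetyltransferases, 11 methyltransferases, 4 other Jumonji genes, 5 MEF2 partners, 7 NAD genes and 1 hypoxia gene. DESeq2 called 6 acetyltransferases and upper-quartile scaling 5, the latter with 14.8% of all tested genes rising and 14.8% falling. Without a filter 0 NCoR subunits and 1 other Jumonji gene were called, while 7.43% of all tested genes rose and 6.49% fell. With the replicate block 2 CoREST, 0 NCoR, 3 methyltransferase, 0 other Jumonji and 2 NAD genes were called. Over all genes 1114 rose (7.21%) and 1240 fell (8.03%) in that fit. Deviations of same-numbered samples correlated at -0.468 to 0.0292, and no sample correlated best with its own number.

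Leaving out single libraries gave 5 to 5 NuRD, 4 to 8 SIN3, 3 to 5 CoREST, 0 to 1 NCoR, 2 to 5 acetyltransferase, 3 to 8 methyltransferase, 1 to 4 other Jumonji, 3 to 4 MEF2 partner, 3 to 5 NAD and 0 to 0 hypoxia genes. Of the uncalled genes, 5 near 0 changed sign: Hdac1 (0.0037 with DESeq2, 0.0040 with RLE, -0.024 to 0.035 leaving out single libraries), Hdac8 (-0.00024 with limma-voom, -0.013 to 0.12), Hdac4 (-0.040 to 0.081), Hdac5 (-0.11 to 0.018) and Kdm7a (-0.31 to 0.0038). Without division by length, Kdm5c, Hdac3 and Hdac1 ranked 1, 4 and 9 in AHRKO. The cause of these changes was not tested. Kdm4d had too few counts to be tested at this depth.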
